A study of Mus musculus with 4 samples.

Results

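The microtubule, motor and neurofilament genes of the embryonic mouse neocortex were taken by gene symbol. They comprised kinesins, dynein and dynactin subunits, tubulins, microtubule-associated proteins, plus-end tracking proteins, myosins, and the intermediate filaments of neurons and radial glia. Of 6856 probes on the array, 73 had a matching symbol, and 67 probes for 65 genes had a value on at least 3 arrays. These 67 probes are the members. The symbols sought included kinesin light chains and tau, but no probe with a single gene symbol matched them.

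RNA of null mutants, described in the labels as having a synaptically silent brain, was set against a pool of RNA from 4 control replicates. Both came from the neocortex of C57BL/6 embryos, given as embryonic day 16, although for replicate 1 the null sample's source name reads day 14. Each of 4 arrays carried a different null sample in Cy5 (replicates 2, 3 and 4) or in Cy3 (replicate 1), and the pool in the other dye. The series title places the comparison under gene expression regulated by synaptic activity.

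Each value is a log ratio of both channels on a single array, taken as log2, so that 1 stands for a 2-fold difference. The numerator is not given in the sources used here. A positive value therefore cannot be read as higher or as lower in the null, and signs are printed as deposited. Replicates 2 to 4 share a dye orientation and run the same way whatever the numerator was. They carry the tests, and replicate 1 is printed beside them for most members. Within these 3 arrays, dye and genotype cannot be told apart. Because all arrays share the pool, it counts as 1 control sample, and the spread between control embryos is not in the tests. Nothing in the labels says that the null samples came from separate litters, so p-values measure the spread between these samples. The ratios hold no expression levels, so the labelled tissue could not be checked against its markers.

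Microtubules are hollow polymers of alpha- and beta-tubulin that serve as tracks and scaffolds in neurons. Kinesins mostly carry cargo toward the plus end in the axon tip, and dynein with dynactin carries cargo back toward the cell body. In the embryonic cortex the same machinery moves the nucleus of migrating neurons, positions the spindle of dividing progenitors and extends axons. Mutations in several of these genes, among them the alpha-tubulin Tuba1a and the dynein regulator Pafah1b1 (Lis1), cause lissencephaly in humans. Neurofilaments give axons their calibre, and vimentin and nestin are the intermediate filaments of radial glia.

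Between 5777 and 5873 probes had a value on each array, with an SD over all probes of 0.48, 0.43, 0.63 and 0.40 in the order of their numbers. Replicate 3 had the widest spread and replicate 4 the narrowest. Over the 66 members with 4 values, Spearman's rho was 0.38 for replicates 2 and 3, 0.20 for replicates 2 and 4, and -0.31 for replicates 3 and 4. Over all 5687 probes with 4 values the same pairs had 0.28, 0.22 and 0.013. Probes share arrays, dyes and the pool, so these are descriptions.

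No member differed between null and pool past the threshold used, an adjusted p of 0.05. With limma, 0 of the 66 members with a value on each of replicates 2 to 4 passed, and over all 5720 probes tested the share was 0%. At an unadjusted p under 0.05, 2 members were listed, or 3.03%, below the 9.67% of all probes. They were Clip2, a linker at growing microtubule ends, with a negative mean (background 4.06%), and Dynlt1b, a dynein light chain, with a positive mean (background 5.61%). The median over the 66 means was -0.0065, against -0.016 over all probes, and 35 members had a negative mean (background 52.6%) and 31 a positive one (background 47.4%). In RNA of whole tissue, fewer cells of a type and less RNA per cell cannot be told apart.

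A common sign over replicates 2 to 4 was found at 21 of 66 members, which is 31.8% against a background of 33.5%. Of these, 8 were positive (16.3% of all probes) and 13 were negative (17.3% of all probes). A mean beyond 0.4 in size was reached by 4 members, Clip2, Dynlt1b, the axonal protein Map1b and the kinesin Kif9, where the background is 14.5%. The median SD between the 3 arrays was 0.24 for members and 0.27 for all probes.

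The 95% interval from limma reached a median of 0.39 to either side of a member's mean. For 63 of 66 members the whole interval lay between -1 and 1, so that a 2-fold difference was outside it. The same held for 89.4% of all probes. The interval passed -1 or 1 for Kif9, Kif8 and Tubd1.

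**Figure D1:**
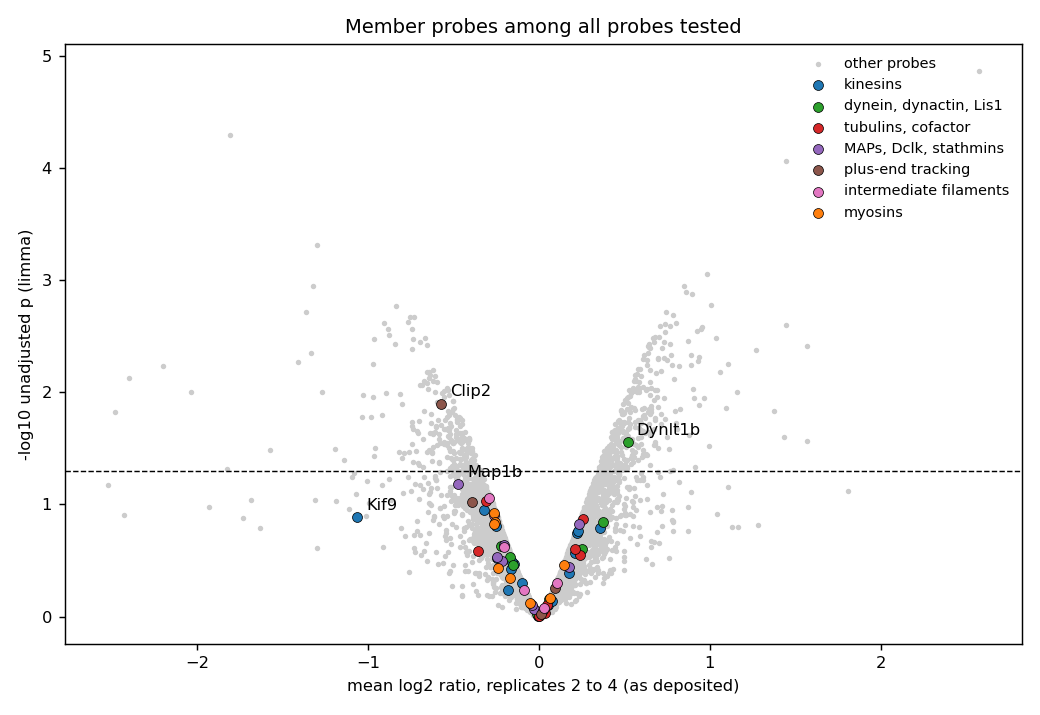
Mean log2 ratio of replicates 2 to 4 (x axis) against -log10 of the unadjusted limma p (y axis), with members coloured by role and all other probes in grey. The dashed line marks an unadjusted p of 0.05, and only Clip2 and Dynlt1b of the 66 members lie above it.

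Clip2 encodes CLIP-115, a protein enriched in neurons that binds growing microtubule ends. It had log ratios of -0.80, -0.60 and -0.31 on replicates 2, 3 and 4, and -1.13 on replicate 1. All 4 arrays were negative as deposited, with the value furthest from 0 on replicate 1. The mean of replicates 2 to 4 was -0.57 ± 0.25 (SD, n = 3), or 1.49-fold in size, with a 95% interval of -0.97 to -0.18. The unadjusted p was 0.0127 and the adjusted p 0.473 in limma, which placed Clip2 at rank 152 of 5720 probes.

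Its relative Clip1, or CLIP-170, had 0.15, 0.10 and -0.23 on replicates 2, 3 and 4, and -0.31 on replicate 1. These values lie on both sides of 0, and the mean was 0.0097 ± 0.20. The end-binding proteins recruit such linkers to the microtubule tip. Mapre3, or EB3, the form enriched in neurons, had -0.41, -0.80 and 0.03 on replicates 2, 3 and 4, and 0.03 on replicate 1. It was far below 0 on replicates 2 and 3 and at about 0 on the other arrays, with a mean of -0.39 ± 0.42 and an unadjusted p of 0.0946. Mapre1, or EB1, which is found in most cells, had 0.04, -0.07 and 0.31, and 0.17 on replicate 1, with a mean of 0.096 ± 0.19. The median over the 4 plus-end tracking probes was -0.19.

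The bases upstream of the Clip2 start are shown because Clip2 was the member with the smallest p. They come from RefSeq on build GRCm38.p6, chr5:134552435-134552684, minus strand, and run 5′ to 3′ over 250 bases up to the annotated start. Capitals mark matches on either strand to TGACG (part of the cAMP response element), to the CCAAT box, to the TATAAA box or to GGGCGG (the GC box).
Clip2: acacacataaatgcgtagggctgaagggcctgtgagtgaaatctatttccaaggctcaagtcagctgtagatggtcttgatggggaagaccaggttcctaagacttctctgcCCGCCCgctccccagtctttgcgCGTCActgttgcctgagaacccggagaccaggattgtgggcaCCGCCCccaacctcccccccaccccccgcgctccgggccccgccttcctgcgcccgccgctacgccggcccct
The window held a single TGACG match, 2 GGGCGG matches, and neither CCAAT nor TATAAA. Of 65 member genes, 52 had a promoter in the RefSeq table, with 67 windows in all. Dynlt1b had no entry.

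TGACG was found in 29.9% of the 67 member windows and in 17.8% of all 32851 windows of the same length. GGGCGG was found in 56.7% of member windows and in 32.7% of all windows. The full element TGACGTCA, which contains TGACG, was in 1 member window and in 1.55% of all windows. CCAAT was in 28.4% of member windows against 33.9% of all, and TATAAA in 10.4% against 12.4%. The median GC content was 60.0% in member windows and 52.4% in all. A match is a string of letters and says nothing of binding.

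**Figure D2:**
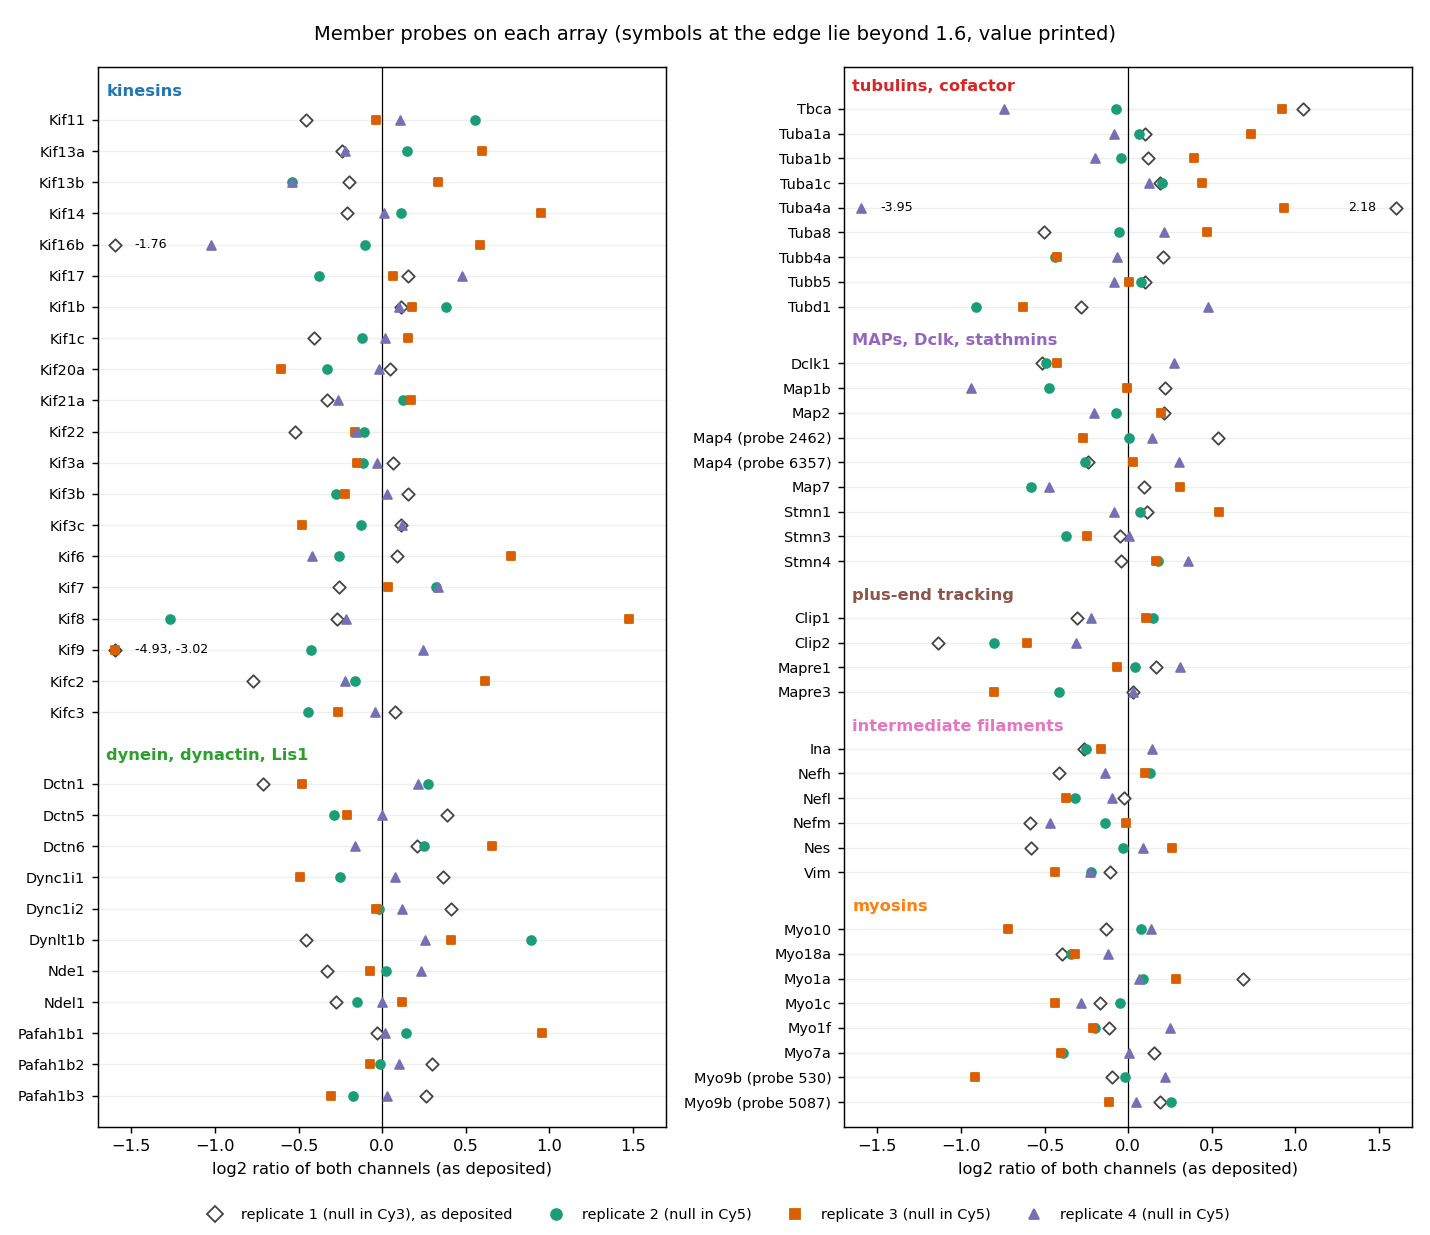
Log2 ratios as deposited (x axis) of the 67 member probes, grouped by role (rows), with a symbol for each of the 4 arrays. Values beyond 1.6 in size are drawn at the edge and printed: Kif9 at -4.93 (replicate 1) and -3.02 (replicate 3), Kif16b at -1.76 (replicate 1), and Tuba4a at 2.18 (replicate 1) and -3.95 (replicate 4).

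Dynein is the motor that walks toward the minus end, and Dynlt1b is a mouse copy of the Tctex-type light chain. Dynlt1b had 0.89, 0.41 and 0.26 on replicates 2, 3 and 4, and -0.46 on replicate 1. It was positive on the 3 arrays with null RNA in Cy5 and negative on the array with null RNA in Cy3. The mean of replicates 2 to 4 was 0.52 ± 0.33 (SD, n = 3), or 1.43-fold in size, with a 95% interval of 0.080 to 0.96. The unadjusted p was 0.0278 and the adjusted p 0.473 in limma. Dynlt1b belongs to a set of near-identical gene copies, and probe sequences were not used here, so its signal may include RNA of the other copies.

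The other 10 probes of dynein, dynactin and the Lis1 partners had means between -0.22 and 0.37. Pafah1b1, the dynein regulator Lis1, had 0.14, 0.96 and 0.02 on replicates 2, 3 and 4, and -0.03 on replicate 1. Replicate 3 alone was far from 0, and the mean was 0.37 ± 0.51 with an unadjusted p of 0.145. Pafah1b2 and Pafah1b3, which form the catalytic dimer that Lis1 binds in another complex, had means of 0.0046 ± 0.089 and -0.15 ± 0.17. Nde1 and Ndel1, the scaffolds that join Lis1 to dynein, had means of 0.061 ± 0.16 and -0.0096 ± 0.14.

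The intermediate chain Dync1i1, enriched in neurons, had -0.25, -0.49 and 0.07 on replicates 2, 3 and 4, and 0.37 on replicate 1. The signs were mixed, with a mean of -0.22 ± 0.28. The intermediate chain Dync1i2, which is found more widely, had -0.02, -0.04 and 0.12 on replicates 2, 3 and 4, and 0.41 on replicate 1, with a mean of 0.020 ± 0.084. In dynactin, the dynein cofactor, Dctn6 had 0.25, 0.66 and -0.16 on replicates 2, 3 and 4, and 0.21 on replicate 1, with a mean of 0.25 ± 0.41. Dctn5, another subunit of the pointed end, had -0.29, -0.21 and -0.00098 on replicates 2, 3 and 4, and 0.39 on replicate 1. Dctn1, the large subunit that touches the microtubule, had 0.27, -0.48 and 0.21, and -0.72 on replicate 1, with a mean of 0.0022 ± 0.42. The median over all 11 probes was 0.0046.

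Kinesins made up 20 of the tested probes, and their median was 0.0032, with 10 positive and 10 negative means. None reached an unadjusted p under 0.05, where the background is 9.67%. Kif12 and Kif15 had no value on any array.

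The kinesins of cell division gave opposite signs. Kif11, or Eg5, which pushes spindle poles apart, had 0.56, -0.04 and 0.11 on replicates 2, 3 and 4, and -0.45 on replicate 1. Kif14, which acts in cytokinesis, had 0.11, 0.95 and 0.0092 on replicates 2, 3 and 4, and -0.21 on replicate 1, with a mean of 0.36 ± 0.52 and an unadjusted p of 0.161. Kif20a, another motor of cytokinesis, had -0.33, -0.61 and -0.02 on replicates 2, 3 and 4, and 0.04 on replicate 1, with a mean of -0.32 ± 0.29 and an unadjusted p of 0.111. Kif22, which binds chromosome arms, had a narrow range from -0.16 to -0.11 on replicates 2 to 4, and -0.52 on replicate 1. The median of these 4 means, a set chosen after the values were seen, was 0.033. The 9 tested of 10 genes that mark dividing cells had a median of 0.00084 on the same arrays. The list averaged 0.089, 0.018 and -0.0029 for replicates 2, 3 and 4, and -0.040 for replicate 1. The part of dividing cells in the kinesin values was not tested.

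Among kinesins outside cell division, Kif1b, which carries mitochondria and precursors of synaptic vesicles, had 0.38, 0.18 and 0.10 on replicates 2, 3 and 4, and 0.11 on replicate 1. All 4 values were positive as deposited, with a mean over replicates 2 to 4 of 0.22 ± 0.14 and an unadjusted p of 0.182 in limma. If the sign of replicate 1 has to be turned, the Kif1b mean of 4 arrays is 0.14 ± 0.20. Kif7, a ciliary kinesin of the Hedgehog pathway, had 0.32, 0.04 and 0.33, and -0.26 on replicate 1, with a mean of 0.23 ± 0.17. Kifc3, a motor toward the minus end, had -0.44, -0.27 and -0.04 on replicates 2, 3 and 4, and 0.07 on replicate 1. It was negative on the 3 arrays, with a mean of -0.25 ± 0.20 and an unadjusted p of 0.155. Kif17, which carries NMDA receptor vesicles in dendrites, had -0.38, 0.06 and 0.48 on replicates 2, 3 and 4, and 0.16 on replicate 1, a spread that covers 0.

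Some kinesin probes gave very unequal ratios. Kif9, a kinesin of motile cilia and sperm, had -0.43, -3.02 and 0.25 on replicates 2, 3 and 4, and -4.93 on replicate 1. Replicates 1 and 3 were far below 0 and the other arrays were not, so that the mean of replicates 2 to 4, -1.06 ± 1.72, had an interval of -2.56 to 0.43. Kif16b, a motor of early endosomes, had -0.10, 0.59 and -1.02, and -1.76 on replicate 1. The probe that the platform calls Kif8, a symbol that the RefSeq table did not match, had -1.27, 1.48 and -0.22, and -0.27 on replicate 1. Pearson's r over the 66 members was 0.51 for replicates 1 and 3, whereas Spearman's rho was 0.020. The other 6 kinesins outside kinesin-2, namely Kif13a, Kif13b, Kif1c, Kif21a, Kif6 and Kifc2, had means between -0.25 and 0.17.

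Kinesin-2 is a heterotrimer of the motors Kif3a and Kif3b with the accessory protein Kifap3, and it serves axonal transport and the cilium. Kif3c is an alternative motor partner of Kif3a. Kif3a had -0.11, -0.15 and -0.03 on replicates 2, 3 and 4, and 0.06 on replicate 1. Kif3b had -0.28, -0.23 and 0.03, and 0.16 on replicate 1. Kif3c had -0.13, -0.48 and 0.12, and 0.11 on replicate 1. The 3 motors were all negative on replicates 2 and 3 and all positive on replicate 1, with means of -0.098, -0.16 and -0.16 that did not pass the test. Over all 5720 probes, 2633 were positive on replicate 2 and 2840 on replicate 3, and 2861 of 5687 were positive on replicate 1. The 95% interval of Kif3a ran from -0.44 to 0.24 and that of Kif3b from -0.52 to 0.21.

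Kifap3 is not a member, and stands in the list of motor adaptors. It had 0.62, 0.60 and 0.70 on replicates 2, 3 and 4, and 0.23 on replicate 1. All 4 values were positive as deposited and lay above each motor's value on the same array. If replicate 1 has to be turned, the Kifap3 value there is negative and lies below those of the motors, which turn with it. Its mean was 0.64 ± 0.054 (SD, n = 3), with an unadjusted p of 0.00392 and an adjusted p of 0.450 in limma. The difference between Kifap3 and the motors was not tested, and the trio was set side by side after the values were seen.

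**Figure D3:**
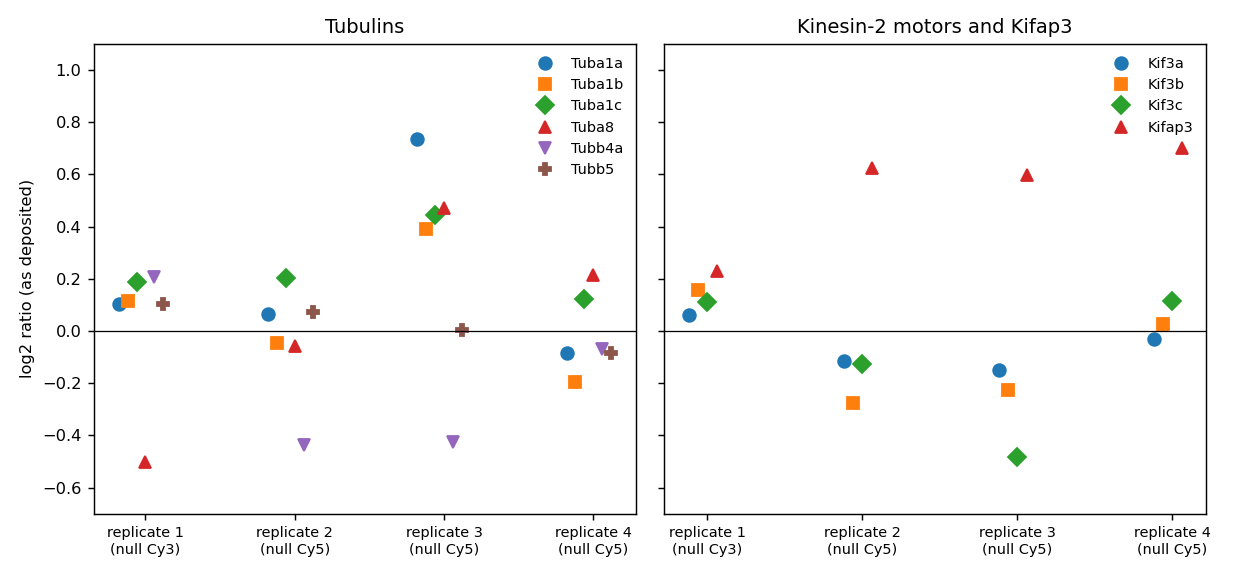
Log2 ratios as deposited (y axis) of 6 tubulins (left) and of the kinesin-2 motors with Kifap3 (right) on each array (x axis). The alpha-tubulins reach 0.39 to 0.73 on replicate 3, and Kifap3 lies between 0.60 and 0.70 on replicates 2 to 4, above Kif3a, Kif3b and Kif3c.

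The upstream windows of the heterotrimer's genes are shown to set its subunits side by side, and the difference between their ratios was not tested. They are 250 bases each on GRCm38.p6, 5′ to 3′ up to the start, with capitals as above. Kif3a lies at chr11:53567119-53567368, Kif3b at chr2:153291166-153291415 and Kifap3 at chr1:163779333-163779582, all on the plus strand.
Kif3a: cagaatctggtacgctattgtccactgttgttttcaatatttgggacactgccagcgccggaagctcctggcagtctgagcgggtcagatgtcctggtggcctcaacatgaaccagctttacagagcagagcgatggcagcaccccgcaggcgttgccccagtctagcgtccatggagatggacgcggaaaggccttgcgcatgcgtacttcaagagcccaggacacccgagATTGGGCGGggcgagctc
Kif3b: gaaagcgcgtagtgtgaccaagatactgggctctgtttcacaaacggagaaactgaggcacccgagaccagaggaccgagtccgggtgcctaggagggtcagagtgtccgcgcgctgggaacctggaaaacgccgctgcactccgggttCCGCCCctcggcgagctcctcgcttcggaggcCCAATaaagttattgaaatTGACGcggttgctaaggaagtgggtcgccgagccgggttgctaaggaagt
Kifap3: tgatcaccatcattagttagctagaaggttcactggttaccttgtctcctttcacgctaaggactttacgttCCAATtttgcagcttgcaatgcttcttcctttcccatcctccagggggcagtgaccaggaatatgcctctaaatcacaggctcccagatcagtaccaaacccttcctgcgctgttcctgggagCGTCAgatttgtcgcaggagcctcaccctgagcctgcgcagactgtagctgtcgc
CCAAT was matched in all 3 windows, and in Kif3a it overlaps the GC box. GGGCGG was matched in Kif3a and Kif3b and not in Kifap3, whereas TGACG was matched in Kif3b and Kifap3.

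Tubulins are the building blocks of the polymer, and 8 probes of tubulins and their folding cofactor were tested. Their median was 0.041. By array it was -0.051, 0.42 and -0.076 for replicates 2, 3 and 4, and 0.11 for replicate 1. Replicate 3 thus stood above the other arrays for this group, while its median over all probes was -0.0040. Without replicate 3 the median over the 8 means was -0.065, and without replicate 4 it was 0.19.

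Tuba1a, the main alpha-tubulin of young neurons, had 0.07, 0.73 and -0.09 on replicates 2, 3 and 4, and 0.10 on replicate 1. Tuba1b, found in most cells, had -0.05, 0.39 and -0.20, and 0.12 on replicate 1. Tuba1c, a related form, had 0.20, 0.44 and 0.12, and 0.19 on replicate 1. On each of replicates 2 to 4, Tuba1b was the lowest of the trio, and only Tuba1c was positive on all 4 arrays as deposited. Their means were 0.24 ± 0.44 for Tuba1a, 0.050 ± 0.31 for Tuba1b and 0.26 ± 0.17 for Tuba1c, with unadjusted p of 0.285, 0.783 and 0.135 in limma. With replicate 1 turned, the means of 4 arrays were 0.15, 0.0081 and 0.15 in the same order. The coding sequences of these genes are nearly identical, so their probes may share RNA and are not independent.

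The trio lies close together on chromosome 15, and its upstream windows are shown to compare genes that nearly share a protein. They are taken on GRCm38.p6, 250 bases up to the start, with capitals as above: Tuba1a at chr15:98953502-98953751 and Tuba1b at chr15:98934391-98934640, both on the minus strand, and Tuba1c at chr15:99029641-99029890 on the plus strand.
Tuba1a: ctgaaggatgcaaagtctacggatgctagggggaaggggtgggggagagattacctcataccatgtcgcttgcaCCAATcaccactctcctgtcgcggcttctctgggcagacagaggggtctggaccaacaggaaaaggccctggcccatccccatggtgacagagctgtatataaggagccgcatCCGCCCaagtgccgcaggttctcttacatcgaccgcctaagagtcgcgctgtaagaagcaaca
Tuba1b: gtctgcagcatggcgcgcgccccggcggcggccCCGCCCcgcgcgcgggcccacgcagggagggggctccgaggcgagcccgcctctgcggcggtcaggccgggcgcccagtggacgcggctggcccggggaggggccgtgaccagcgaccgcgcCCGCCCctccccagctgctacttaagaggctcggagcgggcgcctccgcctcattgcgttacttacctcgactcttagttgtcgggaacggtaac
Tuba1c: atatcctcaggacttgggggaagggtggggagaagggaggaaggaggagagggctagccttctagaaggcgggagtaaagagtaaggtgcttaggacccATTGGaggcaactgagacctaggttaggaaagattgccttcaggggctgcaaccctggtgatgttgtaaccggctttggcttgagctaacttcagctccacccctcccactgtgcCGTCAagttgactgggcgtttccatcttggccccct
The Tuba1b window had 75.6% GC and 2 GGGCGG matches, the Tuba1a window 56.8% GC with a match each of CCAAT and GGGCGG, and the Tuba1c window 55.6% GC with a match each of TGACG and CCAAT.

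The beta-tubulin Tubb5, abundant in the developing brain, had 0.07, 0.0035 and -0.09 on replicates 2, 3 and 4, and 0.10 on replicate 1. It lay near 0 on every array, with a mean of -0.0026 ± 0.079 and a 95% interval of -0.35 to 0.34. Tubb4a, a beta-tubulin of neurons and oligodendrocytes, had -0.44, -0.43 and -0.07 on replicates 2, 3 and 4, and 0.21 on replicate 1. It was negative on the 3 arrays with a mean of -0.31 ± 0.21 and an unadjusted p of 0.0935.

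Tuba8, an alpha-tubulin with a divergent sequence, had -0.06, 0.47 and 0.21 on replicates 2, 3 and 4, and -0.50 on replicate 1, with a mean of 0.21 ± 0.27. Tubd1, the delta-tubulin of centrioles, had -0.91, -0.63 and 0.48, and -0.28 on replicate 1, a spread that covers 0. Tbca, the cofactor that holds free beta-tubulin, had -0.07, 0.92 and -0.75, and 1.04 on replicate 1. Tuba4a had no value on replicate 2, with 0.93 on replicate 3, -3.95 on replicate 4 and 2.18 on replicate 1, and was not tested. Its other probe had no value.

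Structural microtubule-associated proteins stabilise the polymer, and stathmins bind free tubulin. Map1b, the first such protein in growing axons, had -0.47, -0.0082 and -0.94 on replicates 2, 3 and 4, and 0.22 on replicate 1. Replicates 2 and 4 were far below 0 and replicate 3 was at 0. The mean was -0.47 ± 0.47 (SD, n = 3) with an interval of -0.99 to 0.045, an unadjusted p of 0.0665 and an adjusted p of 0.538 in limma. Map2, which marks dendrites, had -0.07, 0.20 and -0.20 on replicates 2, 3 and 4, and 0.21 on replicate 1, with a mean of -0.027 ± 0.20.

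Map4, a form found in many tissues, had 2 probes. Probe 2462 had 0.0035, -0.27 and 0.14 on replicates 2, 3 and 4, and 0.54 on replicate 1. Probe 6357 had -0.26, 0.03 and 0.31, and -0.24 on replicate 1. The probes disagreed in sign on every array except replicate 4, and their means were -0.042 ± 0.21 and 0.026 ± 0.28. Map7, which recruits kinesin-1, had -0.58, 0.31 and -0.47 on replicates 2, 3 and 4, and 0.10 on replicate 1, with a mean of -0.25 ± 0.49. Map1a had values only on replicates 3 and 4, at -0.17 and 0.75, and Map6 had none.

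Dclk1, a doublecortin-like kinase of migrating neurons, had -0.49, -0.43 and 0.27 on replicates 2, 3 and 4, and -0.52 on replicate 1. Replicate 4 stood apart from the other arrays. The stathmins Stmn1, Stmn3 and Stmn4 differed in sign. Stmn4 had 0.18, 0.17 and 0.36 on replicates 2, 3 and 4, and -0.04 on replicate 1, with a mean of 0.24 ± 0.11 and an unadjusted p of 0.149. Stmn3 had -0.37, -0.25 and 0.0039, and -0.05 on replicate 1, with a mean of -0.20 ± 0.19. Stmn1, also abundant in progenitors, had 0.07, 0.54 and -0.09, and 0.11 on replicate 1. The median over the 9 probes of this group was -0.042.

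Intermediate filaments had a median of -0.15 over 6 probes, 4 of them with a negative mean (background 52.6%), and none at an unadjusted p under 0.05 (background 9.67%). On replicate 1 as deposited all 6 were negative, while 2861 of all 5687 probes with a value were positive there. Vim, the vimentin of radial glia, vessels and meninges, had -0.22, -0.44 and -0.23 on replicates 2, 3 and 4, and -0.11 on replicate 1. Its mean was -0.29 ± 0.12 with an interval of -0.65 to 0.059 and an unadjusted p of 0.0873 in limma. With replicate 1 turned, the Vim mean of 4 arrays was -0.19 ± 0.22. Nes, the nestin of progenitors, had -0.03, 0.26 and 0.09, and -0.58 on replicate 1, with a mean of 0.10 ± 0.15.

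The neurofilament chains Nefl, Nefm and Nefh assemble into the heteropolymer of mature axons. Nefl had -0.32, -0.37 and -0.10 on replicates 2, 3 and 4, and -0.03 on replicate 1. Nefm had -0.14, -0.02 and -0.47, and -0.59 on replicate 1. Both were negative on all 4 arrays as deposited, with means of -0.26 ± 0.15 and -0.21 ± 0.23 and unadjusted p of 0.125 and 0.241 in limma. With replicate 1 turned, the means of 4 arrays were -0.19 ± 0.19 for Nefl and -0.0086 ± 0.44 for Nefm. Nefh, the heavy chain that appears last in development, had 0.13, 0.10 and -0.14, and -0.41 on replicate 1. Ina, the alpha-internexin of young neurons, had -0.25, -0.16 and 0.14, and -0.26 on replicate 1. Nefl and Nefm are neighbours on chromosome 14.

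Markers of other cell types were examined on the same arrays, and 0 of their probes passed the adjusted threshold in limma. The 4 tested of 7 genes for meninges, which contain vimentin, all had negative means (background 52.6%). These ran from -1.36 to -0.16, with a median of -0.37. By array the list median was -0.32, -0.66 and -0.33 on replicates 2, 3 and 4, and -0.18 on replicate 1. The list mean was -0.31, -0.67 and -0.71 on replicates 2, 3 and 4, and -0.41 on replicate 1. Of these 4 probes, 2 had an unadjusted p under 0.05 in limma (background 9.67%). The 6 genes for vessels had a median of -0.034, with 3 negative means (background 52.6%). The 9 progenitor genes tested of 10 had a median over probes of -0.053. The 8 tested of 10 genes for neurons had a median of 0.038, with 4 positive means (background 47.4%). The 4 tested of 6 genes for blood also all had negative means (background 52.6%), with a median of -0.37. The blood list averaged -0.22, -0.44 and -0.48 for replicates 2, 3 and 4, and 0.077 for replicate 1. At an unadjusted p under 0.05 in limma stood 2 of 4 probes for blood, where the background is 9.67%. The same count was 2 of 8 for neurons, 1 of 10 for progenitors, 1 of 6 for vessels, 0 of 6 for glia and 0 of 4 for muscle. The 4 tested of 8 genes for muscle all had negative means as well (background 52.6%), with a median of -0.14. For glia, 4 of 6 probes had a negative mean (background 52.6%), with a median of -0.10. The part of meninges, blood, vessels, progenitors, neurons, glia and muscle in the filament values was not tested.

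**Figure D4:**
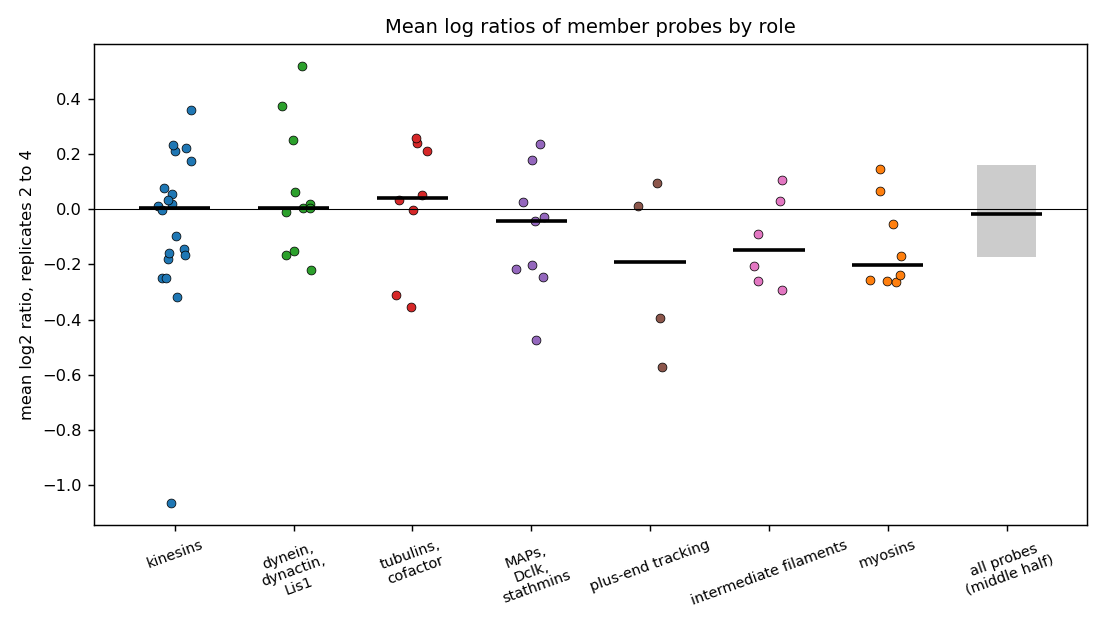
Mean log2 ratio of replicates 2 to 4 (y axis) of each tested member probe by role (x axis), with a black line at each group's median and a grey bar for the interquartile range of all probes tested. The medians run from -0.20 for myosins to 0.041 for tubulins, and without replicate 3 these medians were 0.050 and -0.065.

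Myosins walk on actin and drive the short transport that takes over from microtubules. Their 8 tested probes had a median of -0.20, with 6 negative means (background 52.6%), and none reached an unadjusted p under 0.05 (background 9.67%). By array the group's median was -0.033, -0.36 and 0.054 for replicates 2, 3 and 4, and -0.11 for replicate 1. Without replicate 3 the median over the 8 means was 0.050.

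Myo18a, a myosin of the Golgi, had -0.34, -0.32 and -0.12 on replicates 2, 3 and 4, and -0.40 on replicate 1. Myo1c, which links membranes to actin, had -0.05, -0.44 and -0.28, and -0.17 on replicate 1. Both were negative on all 4 arrays as deposited, with means of -0.26 ± 0.12 and -0.26 ± 0.20 and unadjusted p of 0.12 and 0.145 in limma. With replicate 1 turned, the means of 4 arrays were -0.096 ± 0.34 for Myo18a and -0.15 ± 0.27 for Myo1c. Myo7a, known from hair cells of the ear, had -0.39, -0.40 and 0.0047, and 0.15 on replicate 1. Myo1a, known from the brush border of the gut, had 0.09, 0.29 and 0.06, and 0.69 on replicate 1, with a mean of 0.15 ± 0.12.

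Myo9b had 2 probes that disagreed. Probe 530 had -0.02, -0.92 and 0.22 on replicates 2, 3 and 4, and -0.10 on replicate 1. Probe 5087 had 0.26, -0.11 and 0.05, and 0.19 on replicate 1. Their means were -0.24 ± 0.60 and 0.064 ± 0.19, and the sign was shared on replicates 3 and 4 only. Myo10, a motor of filopodia, had 0.08, -0.72 and 0.14, and -0.13 on replicate 1. Myo1f, a myosin of leukocytes, had -0.20, -0.21 and 0.25, and -0.12 on replicate 1, with a mean of -0.054 ± 0.26, and Myo15 had no value. The microglia list had a mean of 0.19, 0.26 and 0.23 on replicates 2, 3 and 4, and -0.027 on replicate 1, where only 5 of the 6 probes had a value. Its median was 0.13, 0.44 and 0.032 on replicates 2, 3 and 4, and -0.085 on replicate 1. The means of its 6 probes ran from -0.52 to 0.90, and 2 of 6 had an unadjusted p under 0.05 in limma (background 9.67%). The part of microglia in Myo1f was not tested.

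Turning replicate 1 changes which members look alike on 4 arrays. If the ratio was channel 2 over channel 1 throughout, the sign of replicate 1 has to be turned. The same sign on all 4 arrays was then shared by 11 of 66 members, or 16.7%, against 18.1% of all probes. They were Dynlt1b, Pafah1b1, Kif14, Kif7 and Stmn4 on the positive side and Dctn5, Kif20a, Kif3a, Kifc3, Map1b and Tubb4a on the negative side. With replicate 1 as deposited, 10 members shared a sign, or 15.2%, against 15.5% of all probes. These were Kif1b, Myo1a and Tuba1c, positive, and Clip2, Kif22, Nefl, Nefm, Vim, Myo18a and Myo1c, negative.

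Dynlt1b had a mean of 0.50 ± 0.27 (SD, n = 4) with replicate 1 turned, at an unadjusted p of 0.0111 and an adjusted p of 0.522 in limma. As deposited its mean was 0.27 ± 0.56, at an unadjusted limma p of 0.242. Clip2 had a mean of -0.15 ± 0.88 with replicate 1 turned, at an unadjusted limma p of 0.658. As deposited its mean was -0.71 ± 0.35, at an unadjusted p of 0.00301 and an adjusted p of 0.663 in limma. At an unadjusted p under 0.05, 1 member was listed with replicate 1 turned, where the background was 8.44%, and 2 as deposited, where it was 7.12%. They were Dynlt1b in the turned fit, and Clip2 and Kif9 as deposited, with Kif9 at -2.03. With the adjusted limma threshold, 0 members passed in either fit, against 0% of 5687 probes with replicate 1 turned and 0.0352% as deposited.

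**Figure D5:**
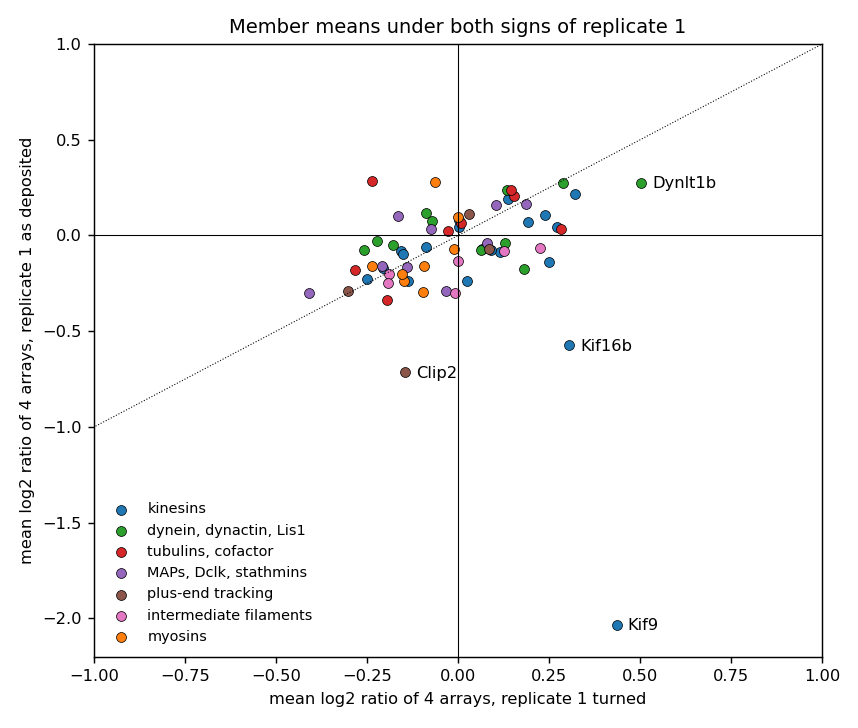
Mean log2 ratio of 4 arrays for each of the 66 member probes, with replicate 1 turned (x axis) and as deposited (y axis), coloured by role, and a dotted line of equality. Dynlt1b lies at 0.50 and 0.27, Clip2 at -0.15 and -0.71, and Kif9 at 0.44 and -2.03.

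Genes around the members were taken from 6 lists of severing and modifying enzymes, motor adaptors, centrosome and spindle proteins, linker proteins, other intermediate filaments and actin partners. Of 175 listed genes, 92 were tested on 94 probes, and 0 passed the adjusted threshold. The limma fit put 9 of these probes below an unadjusted 0.05, with 4 means above 0 and 5 below, or 9.57% against 9.67% of all probes. The median over the 94 probes was -0.043.

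Mid1, a ubiquitin ligase that binds microtubules, had -0.61, -0.70 and -0.68 on replicates 2, 3 and 4, and -0.04 on replicate 1 at the probe with the smaller p. Its mean there was -0.67 ± 0.049 with an unadjusted p of 0.00327 in limma, and the other probe had a mean of -0.51 ± 0.54 with an unadjusted p of 0.0698. In the same list of 9 probes stood Hap1, an adaptor of dynein and kinesin, with -0.89, -0.53 and -0.14 on replicates 2, 3 and 4, and -0.20 on replicate 1. The centrins Cetn3 and Cetn2 of the centriole had means of 0.60 ± 0.52 and 0.52 ± 0.41, with unadjusted limma p of 0.0381 and 0.0406. The actin regulators Vasp, Marcksl1 and Diaph1 had means of -0.56 ± 0.19, -0.52 ± 0.30 and -0.50 ± 0.35, and the actin-severing protein Cfl2 had 0.44 ± 0.20. All 9 had an adjusted p between 0.450 and 0.497 in limma.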

How the data were processed

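The authors' deposited values were log2 ratios of both channels, a single column per array. Base 2 was inferred from sizes of up to 6.85. The sources used here state no numerator, background correction or normalization, and signal over background is unknown. The number of arrays limits the precision. The mutated gene is not reported here. The platform annotation gave a single symbol for 6269 of 6856 probes, and the RefSeq table (GRCm38.p6) matched 72 of 73 member probes by gene ID and changed 0 symbols.

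Members were probes with a matching symbol and values on at least 3 arrays. Mean log ratios of replicates 2 to 4 were tested against 0 over all probes in limma 3.58.1 (R 4.3.3; functions lmFit and eBayes), two-sided, with Benjamini-Hochberg adjustment. The steps were run on simulated data of independent noise with added differences. Those data had no shared pool and no dye effect, so they cannot show whether the p-values hold for these arrays. The members and lists were chosen with earlier results of these data known. Values are given in full for the 4 probes with the smallest p per role group, members beyond 0.4 in size or at an unadjusted p under 0.05, and genes with several probes. Other members, added after their values were seen, show how a group varies. Of the other lists, up to 8 genes by smallest p were to be named, and Cetn2 was the ninth. The alternatives tried are given in the closing section.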

Additional observations from a re-analysis of the deposited data

Results flagged for a closer look

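Each member with 4 values was examined for a single array that stands far from the others, with the gap divided by the whole range and compared with the 95% critical value of Dixon for 4 arrays. By chance about 5% of 66 members would stand out so. With replicate 1 as deposited 2 did. Dclk1 had a ratio of 0.886, because replicate 4 had 0.27 and the other arrays -0.52 to -0.43. Kif22 had 0.872, because replicate 1 had -0.52 and the others -0.16 to -0.11. With replicate 1 turned 3 did. Kif22 had 0.923, again from replicate 1. Myo10 had 0.930, because replicate 3 had -0.72 and the nearest other value was 0.08. Pafah1b1 had 0.870, because replicate 3 had 0.96 and the nearest other value was 0.14.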

How the results depend on the processing

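Each ratio already sets a null sample against the pool on the same array. The control RNA was a single pool without replicate numbers, so null samples could not be paired with single controls. No member passed an adjusted p of 0.05 in limma under any alternative run. The number of the 66 members at an unadjusted p under 0.05 was 2 in the fit of replicates 2 to 4, against 553 of all 5720 probes. It was 1 on 4 arrays with replicate 1 turned, against 480 of 5687 probes, and 8 with array weights, against 1067 of 5720. When a replicate was left out, it ranged from 0 (without replicate 2) to 6 (without replicate 3), with 5 without replicate 4. The counts over all probes were then 236 without replicate 2, 550 without replicate 3 and 621 without replicate 4. Over all probes, the number past the adjusted threshold was 0, and it was 1 at a threshold of 0.1, 1 with a robust variance prior, 2 on 4 arrays with replicate 1 as deposited and 3 with array weights. The members' median was -0.070 with replicate 1 as deposited and -0.089 with array weights, and ranged from -0.062 to -0.041 when a replicate was left out. The kinesin median was -0.12 with array weights. With replicate 1 turned, the median was -0.0048 for intermediate filaments and -0.058 for plus-end tracking proteins. When a replicate was left out, the median ranged from -0.28 to 0.050 for myosins, -0.065 to 0.19 for tubulins, -0.029 to 0.045 for dynein and dynactin, -0.081 to 0.060 for kinesins and -0.13 to -0.064 for structural microtubule-associated proteins. Of 32 named probes, 23 kept their sign under every alternative run. Opposite signs were seen with replicate 1 as deposited for Clip1 (-0.069), Map4 (0.10 at probe 2462 and -0.041 at probe 6357) and Nes (-0.067), and with replicate 1 turned for Kif9 (0.44) and Myo1a (-0.062). On a common scale they were seen for Clip1 (-0.0039) and Map4 (0.0040), with probes averaged by gene for Map4 (-0.0079) and Myo9b (-0.087), and with array weights for Map4 (-0.10). The causes were not tested. When a replicate was left out, the mean of Clip1 ranged from -0.061 to 0.13, of Map4 from -0.13 to 0.073 at probe 2462 and from -0.11 to 0.17 at probe 6357, of Mapre1 from -0.012 to 0.18, and of Myo9b from -0.033 to 0.15 at probe 5087 and from -0.47 to 0.10 at probe 530.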
